A study of Mus musculus with 15 samples.

Results

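The retina of mice needled at the acupoint GB20 after optic nerve crush (ONC-F, 3 libraries) was compared with intact retina (WT, 3 libraries) over every gene that passed a low-count filter, 19259 of the 54532 genes counted. The mice of both groups were wild type C57BL/6, given as 5 weeks old in the labels and 6 weeks in the methods. ONC-F mice had both optic nerves crushed, were needled at GB20 on both sides for 20 min under xylazine and ketamine in 3 sessions 24 h apart, and were dissected 2 days after the crush, while WT mice were naive controls. Crush, surgery, anesthesia and needling therefore cannot be told apart in ONC-F against WT. The group with crush alone (ONC, 3 libraries) was used to sort the changes into those also called after crush alone and those not, and it shares the WT libraries with ONC-F. The remaining crushed groups, needled at BL1 (ONC-J) and GV16 (ONC-S), entered the fit, which rests on 15 libraries in all, and are named only where a value of theirs is given. The methods describe 3 mice a group and 3 repeats of the experiment but not which mice a library holds, so p-values measure the spread between libraries, which may be partly technical.

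Retinal ganglion cells (RGCs) are the projection neurons of the retina, and their axons form the optic nerve. A crush cuts these axons off from their targets. It is known to activate the DLK and JNK kinases, which switch on the transcription factors (TFs) JUN, ATF3 and CHOP (Ddit3) through AP-1 sites and through the integrated stress response, in which ATF4 raises genes for amino acid supply. Identity genes of RGCs are lost early after such injury, growth-associated genes are induced, and many RGCs later die.

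Levels are given as CPM, which are counts scaled to the size of the library, and the values of 3 libraries always stand in the order of replicates 1, 2 and 3. Total counts were between 14482435 and 26112762 per library. Several libraries stood apart within their group. WT replicate 1 held lens transcripts, with 1305 CPM of the lens crystallin Cryaa against at most 45.1 CPM in any other library, and the lens list summed to 4.64 to 2824 CPM in WT and 5.2 to 31.4 CPM in ONC-F. ONC replicate 2 held the highest level of reactive glia genes, with Gfap at 142 CPM against 34.6 and 59.5 CPM in the other ONC libraries. ONC-F replicate 3 had the smallest loss of RGC markers. Some results that rest on these libraries are given with and without them, and others only over all libraries.

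In ONC-F against WT, 198 genes rose (1.03% of those tested) and 189 fell (0.981%) at an adjusted p under 0.05 in edgeR's quasi-likelihood test. Of these, 50 rose and 34 fell by at least 1 on the log2 scale. In each of the 387 genes called, the 3 ONC-F libraries lay wholly above or below the 3 WT libraries, as they did in 19.2% of all genes tested. The 12 largest changes in each direction, among genes with a symbol and a mean of at least 1 CPM in the higher group, took in the injury genes Sprr1a, Ecel1, Mmp12, Chac1, Atf3 and Cdkn1a on the one side and the RGC genes Scn4b, Irx4, Irx2 and Pou4f2 on the other. Without ONC-F replicate 3 the counts were 220 and 239. They fell to 116 and 88 without ONC-F replicate 1, and the count of genes that fell was 116 without WT replicate 1 and 107 without ONC-F replicate 2.

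**Figure D1:**
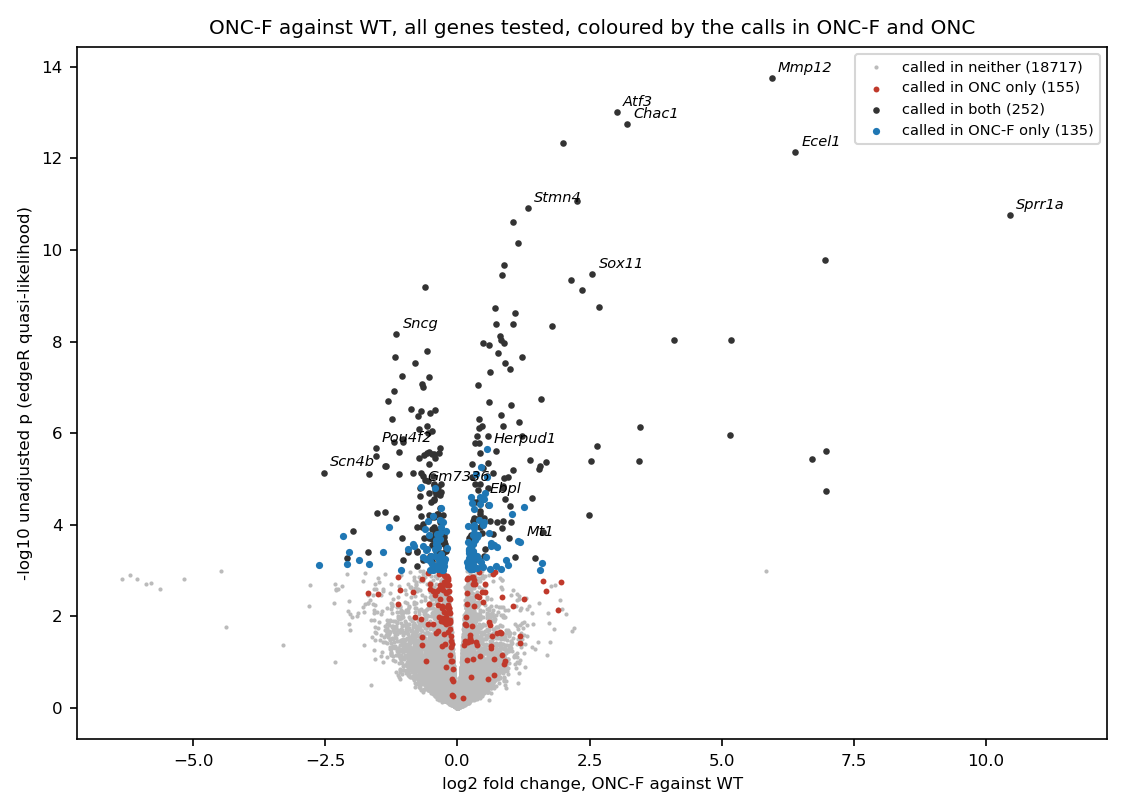
Each point is 1 of the 19259 genes tested, placed by its log2 fold change in ONC-F against WT (x axis) and the -log10 of its unadjusted p (y axis), and coloured by whether it was called in ONC-F, in ONC, in both or in neither. The 252 genes called in both groups reach the largest changes on the right, where the labelled Sprr1a, Ecel1 and Mmp12 lie, and the 135 called in ONC-F alone lie in the lower part of the called range on the y axis.

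Genes of axon injury rose. Of 30 genes known from axon injury and regeneration, 13 rose and 0 fell in ONC-F, with a median of 0.50 on the log2 scale against -0.0042 over all genes tested. Without WT replicate 1, 11 rose. Sprr1a, a small proline-rich protein of injured neurons, had 0 counts in every WT library and stood at 9.62, 11.6 and 5.28 CPM in ONC-F, at least 187-fold above the level that 3 counts over the WT group would give (adjusted p = 4.1e-08). Ecel1, a membrane protease of the endothelin-converting enzyme family that is induced in injured neurons, went from 0.0996, 0.368 and 0.527 CPM in WT to 38.3, 30.1 and 17.6 CPM in ONC-F (log2 fold change 6.40 ± 0.38 SE, adjusted p = 2.84e-09). Replicate 3 was the lowest ONC-F library for both genes, and no ONC-F library came near the WT range. After crush alone the same 2 genes stood at 9.91, 11.1 and 10.9 CPM and at 35.0, 33.8 and 30.9 CPM.

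TFs of the injury response were among the clearest changes. Atf3 was at 4.78, 4.17 and 4.75 CPM in WT and at 45.9, 35.2 and 29.8 CPM in ONC-F (log2 fold change 3.01 ± 0.16, adjusted p = 9.51e-10). Jun rose less in proportion, from 42.9, 44.4 and 50.6 CPM to 76.3, 72.7 and 79.5 CPM (0.73 ± 0.07, adjusted p = 3.67e-06). Sox11, a TF of developing neurons that promotes axon growth in some RGCs, rose from 2.84, 2.25 and 3.11 CPM to 19.9, 18.4 and 9.72 CPM (2.55 ± 0.22, adjusted p = 4.84e-07). The 3 TFs were separate from WT in every ONC-F library, with the lowest Sox11 and Atf3 levels in replicate 3. Across 29 AP-1 and immediate early genes tested, 3 rose in ONC-F (Atf3, Jun and Cebpb, the last not called without WT replicate 1 or ONC-F replicate 1) and 6 in ONC, and the median in ONC-F was 0.12. The count in ONC was 4 without ONC replicate 2 and 5 without WT replicate 1.

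Stmn4, a tubulin-binding stathmin of neurons, rose from 21.6, 21.2 and 26.5 CPM to 58.0, 66.8 and 49.0 CPM (1.33 ± 0.09, adjusted p = 3.32e-08). Tnfrsf12a (Fn14), a TNF receptor family member induced by injury, rose from 4.83, 5.85 and 4.69 CPM to 27.1, 27.6 and 19.3 CPM (2.25 ± 0.15, adjusted p = 2.78e-08). Gap43, a growth cone protein, rose by a smaller amount, 0.43 ± 0.07. Mmp12, a macrophage metalloprotease, was at 0.0498, 0.368 and 0.264 CPM in WT and at 16.6, 18 and 10.3 CPM in ONC-F (5.95 ± 0.29, adjusted p = 3.43e-10). Hrk, a BH3-only protein that promotes neuronal death, was called among 24 genes of the BCL2 family and cell death and rose from 2.19, 2 and 1.9 CPM to 11.4, 13.1 and 6.74 CPM (2.35 ± 0.21). Among 17 members of the DLK and JNK cascade itself, the phosphatases Dusp8 and Dusp16 rose and 0 fell.

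**Figure D2:**
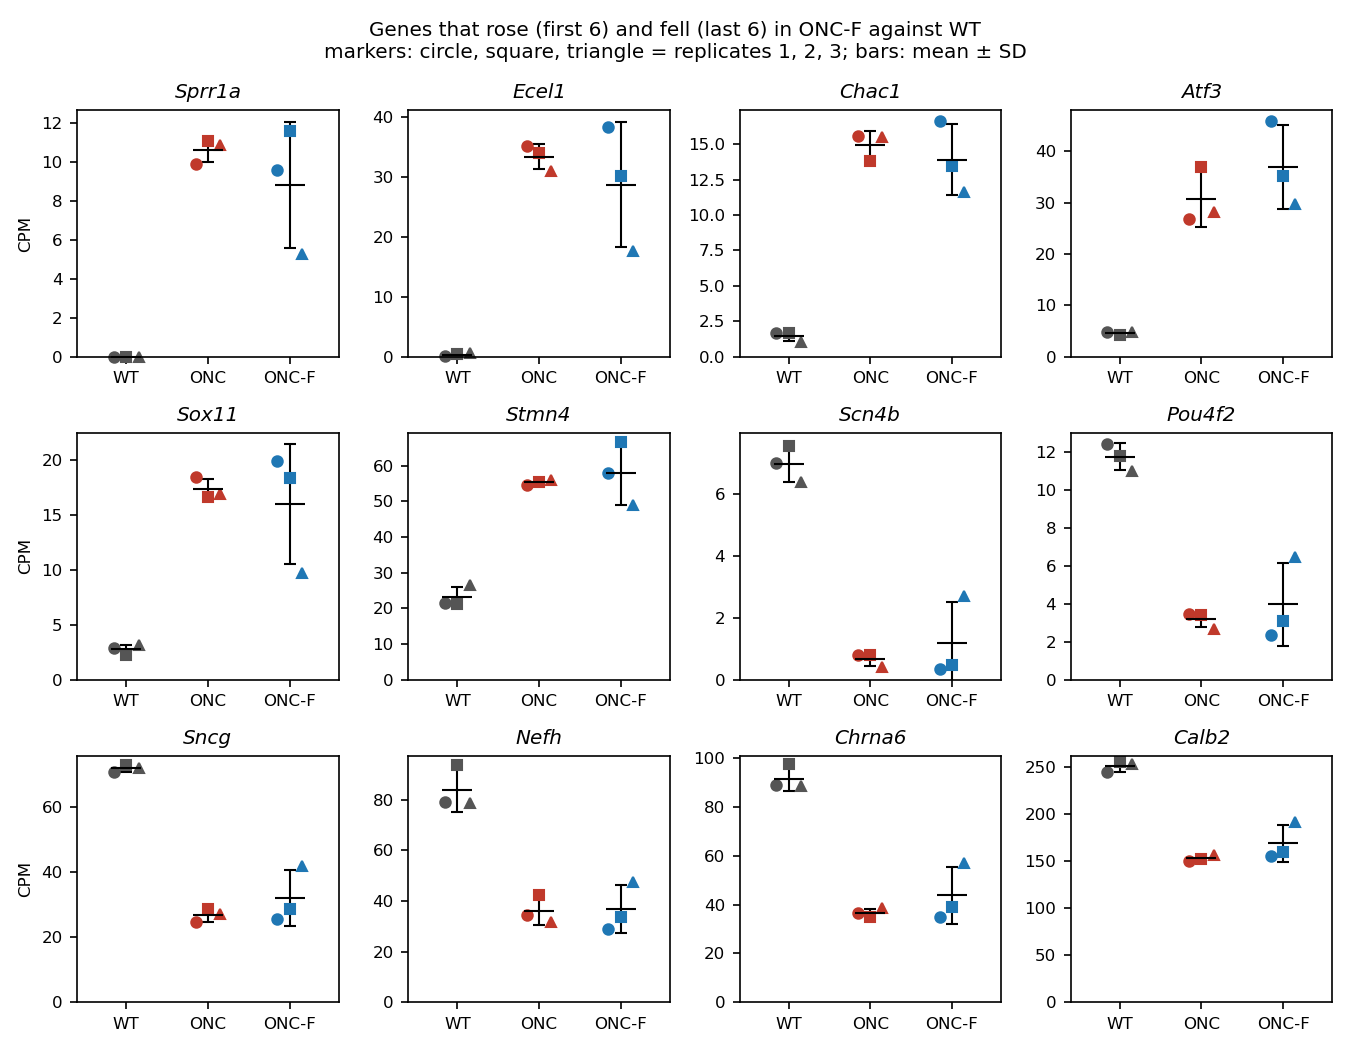
CPM in each library (y axis of each panel, from 0) for 6 genes that rose and 6 that fell in ONC-F against WT, in WT, ONC and ONC-F (x axis), with symbols for replicates 1, 2 and 3 and bars for the mean ± SD. All ONC-F libraries lie apart from WT in every panel, and the triangle of ONC-F replicate 3 is the ONC-F library nearest to the WT mean in all 12 panels.

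The integrated stress response had the most genes called higher of the 48 lists: 16 of its 29 tested genes rose and 0 fell in ONC-F, with a median of 0.70. Chac1, which degrades glutathione, went from 1.69, 1.68 and 1.05 CPM to 16.6, 13.5 and 11.7 CPM (3.21 ± 0.18, adjusted p = 1.14e-09). Ddit3, which encodes the TF CHOP, rose from 36.3, 38.4 and 36.8 CPM to 73.7, 69.2 and 58.2 CPM (0.85 ± 0.07, adjusted p = 4.84e-07). Asns, asparagine synthetase, rose from 22.7, 22.2 and 24.3 CPM to 44.9, 45.3 and 37.8 CPM (0.89 ± 0.07, adjusted p = 3.36e-07). The serine pathway enzyme Phgdh (2.15 ± 0.19), the amino acid transporter Slc7a5 (0.99 ± 0.11) and the mitochondrial folate enzyme Mthfd2 (1.26 ± 0.24) rose as well. Atf4 itself, whose activity is set largely at translation, did not pass the test, with a value of 0.34. The count was 16 without WT replicate 1 and 20 without ONC-F replicate 3. The mean log2 level of the list relative to WT was 0.93, 0.80 and 0.63 in ONC-F. It was not counted without ONC-F replicate 1, its highest library. Over all genes tested, leaving out that library gave 116 genes higher in place of 198.

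Aminoacyl-tRNA synthetases, of which many cytosolic members are ATF4 targets, rose less steeply: 8 of 21 rose and 0 fell, with a median of 0.27. Sars went from 152, 157 and 159 CPM to 218, 237 and 192 CPM (0.47 ± 0.06, adjusted p = 0.000226), and Yars from 67.8, 69.5 and 71.3 CPM to 118, 108 and 85.5 CPM (0.58 ± 0.09, adjusted p = 0.000909). Replicate 3 was the lowest ONC-F library for both. Without ONC-F replicate 3 the count was 13, and without WT replicate 1 it was 5. The mean log2 level of the list relative to WT was 0.36, 0.31 and 0.10 in ONC-F. It was not counted without ONC-F replicate 1, its highest library. In ONC, 5 of the 21 were called, with a median of 0.16, and 3 without ONC replicate 2 or without WT replicate 1. The direct comparison of ONC-F with ONC gave 2 of 21 higher and 0 lower at an unadjusted p under 0.05, against 8.15% of all genes tested. After adjustment it gave 0. Without ONC-F replicate 3, the lowest ONC-F library of the list, it gave 9 higher and 1 lower at an unadjusted p under 0.05. Without ONC replicate 2 it gave 4 higher and 0 lower. Over all genes tested, these 2 fits gave 1704 and 1348 genes at that threshold. Chaperones of the endoplasmic reticulum moved little, with 1 of 21 called (Herpud1), and 0 of 16 heat shock proteins were called.

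Promoters of 5 genes that rose are shown because they hold matches to sites of the TFs named above, and they were chosen after the matches had been seen. The capitals mark matches on either strand to the AP-1 site TGANTCA or to the C/EBP-ATF core TGATGNAA, in 300 bases around the RefSeq start (GRCm38.p6, the build of mm10), written 5′ to 3′ in the direction of the gene.
Chac1 (chr2:119350992-119351291, plus strand): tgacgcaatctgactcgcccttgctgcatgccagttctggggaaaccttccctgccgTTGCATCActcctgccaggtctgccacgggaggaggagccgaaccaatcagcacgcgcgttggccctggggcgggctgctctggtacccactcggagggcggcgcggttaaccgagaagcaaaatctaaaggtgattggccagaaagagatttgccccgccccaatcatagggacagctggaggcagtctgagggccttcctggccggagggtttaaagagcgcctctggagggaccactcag
Asns (chr6:7693160-7693459, minus strand): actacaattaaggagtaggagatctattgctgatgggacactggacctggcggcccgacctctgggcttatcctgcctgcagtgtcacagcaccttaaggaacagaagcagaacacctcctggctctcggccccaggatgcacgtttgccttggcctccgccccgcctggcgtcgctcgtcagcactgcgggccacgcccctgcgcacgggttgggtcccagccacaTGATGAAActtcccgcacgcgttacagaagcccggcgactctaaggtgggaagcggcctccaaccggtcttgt
Atf3 (chr1:191183284-191183583, minus strand): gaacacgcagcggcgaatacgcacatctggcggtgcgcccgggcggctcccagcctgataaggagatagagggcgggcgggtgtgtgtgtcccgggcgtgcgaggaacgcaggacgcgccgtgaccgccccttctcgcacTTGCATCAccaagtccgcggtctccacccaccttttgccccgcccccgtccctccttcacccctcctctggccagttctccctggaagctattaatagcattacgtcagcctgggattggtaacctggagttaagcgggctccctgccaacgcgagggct
Sprr1a (chr3:92485832-92486131, minus strand): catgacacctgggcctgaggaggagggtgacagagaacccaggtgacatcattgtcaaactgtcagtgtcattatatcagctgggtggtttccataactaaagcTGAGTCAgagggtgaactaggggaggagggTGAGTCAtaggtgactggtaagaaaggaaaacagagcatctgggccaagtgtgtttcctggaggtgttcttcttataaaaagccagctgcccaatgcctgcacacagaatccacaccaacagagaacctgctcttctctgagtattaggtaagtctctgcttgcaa
Srxn1 (chr2:152105274-152105573, plus strand): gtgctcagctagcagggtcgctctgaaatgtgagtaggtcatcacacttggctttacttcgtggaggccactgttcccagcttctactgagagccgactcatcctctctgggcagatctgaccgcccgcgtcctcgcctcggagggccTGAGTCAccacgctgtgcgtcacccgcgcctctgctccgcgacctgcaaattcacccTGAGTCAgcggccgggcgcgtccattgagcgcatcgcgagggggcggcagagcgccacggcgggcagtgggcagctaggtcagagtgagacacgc
Chac1, Asns and Atf3 each hold 1 C/EBP-ATF match, and its first base lies at -193, -23 and -110 from the start. Sprr1a and Srxn1 each hold 2 AP-1 matches. Srxn1, the oxidative stress enzyme sulfiredoxin, rose from 55.6, 55.6 and 59.0 CPM to 125, 124 and 103 CPM (1.05 ± 0.08, adjusted p = 5.21e-08). Of the 123 genes that rose in both ONC-F and ONC, 98 matched a RefSeq entry with 125 promoters, of which 12.8% held the C/EBP-ATF core and 13.6% the AP-1 site. Over the 16095 promoters of all genes tested, the shares were 2.36% and 5.37%, and over all 32851 promoters 3.97% and 7.81%. Of the 16 integrated stress response genes that rose, 13 matched 17 promoters, of which 2 held the C/EBP-ATF core and 2 the AP-1 site. Of the 13 injury and regeneration genes that rose, 10 matched 13 promoters, of which 1 held the core and 2 the AP-1 site. The CREB/ATF site TGACGTCA, also searched on both strands, was in 3.2% of the 125 and 2.8% of the 16095. A match of letters describes the sequence and does not show that a factor binds there.

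RGC genes fell. Of 30 RGC markers, 18 fell and 2 rose in ONC-F, with a median of -0.57, and the 2 that rose, Gap43 and the secreted protein Spp1, are also induced by injury. The call of Spp1 (1.09 ± 0.26, adjusted p = 0.0311) was lost without any 1 of the WT libraries or of ONC-F replicates 1 and 2 (adjusted p up to 0.121). Pou4f2 (Brn3b), a TF that specifies RGCs, was at 12.4, 11.8 and 11 CPM in WT and at 2.35, 3.09 and 6.48 CPM in ONC-F (log2 fold change -1.55 ± 0.23, adjusted p = 0.000528). Sncg, gamma-synuclein, fell from 70.6, 73.0 and 72.1 CPM to 25.5, 28.6 and 42.0 CPM (-1.16 ± 0.12, adjusted p = 5.43e-06). Replicate 3 kept the most of both transcripts, though below every WT library. In ONC, 21 of the 30 markers fell and 2 rose, with a median of -0.73. Directly against ONC, 7 were higher and 1 lower in ONC-F at an unadjusted p under 0.05 in edgeR, against 8.15% of all genes tested. After adjustment 0 passed. The mean log2 level of the list relative to WT was -0.78, -0.68 and -0.36 in ONC-F and -0.75, -0.65 and -0.78 in ONC, so that only ONC-F replicate 3 lay outside the range of ONC on the side of WT. Without ONC-F replicate 3, 18 markers fell as before and the median was -0.61. The list was not counted without ONC-F replicate 1 or 2. In bulk retina, fewer RGCs and less RNA per RGC cannot be told apart.

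RGC TFs fell with the markers: 9 of 29 fell and 0 rose, among them Pou4f1 (-0.89 ± 0.11), Isl2 (-1.11 ± 0.18) and the Iroquois TF Irx4. Irx4 went from 5.48, 7.57 and 6.22 CPM to 1.59, 1.36 and 3.08 CPM (-1.67 ± 0.28, adjusted p = 0.00134). The RNA-binding proteins Rbpms (-0.70 ± 0.12) and Rbpms2 (-1.32 ± 0.17), which mark RGCs across types, fell too. Directly against ONC, 3 of the 29 TFs were higher and 1 lower at an unadjusted p under 0.05 in edgeR, against 8.15% of all genes tested, and 0 passed after adjustment.

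Genes of the axon and of excitability fell next to them. Among 32 genes of the axonal cytoskeleton, 9 fell and 2 rose (Stmn4 and Gap43), and 6 fell without WT replicate 1. Directly against ONC, 7 of the 32 were higher and 0 lower at an unadjusted p under 0.05 in edgeR, against 8.15% of all genes tested, and 0 passed after adjustment. The neurofilament Nefh fell from 79.1, 93.8 and 78.7 CPM to 29.0, 33.9 and 47.5 CPM (-1.18 ± 0.13, adjusted p = 1.21e-05), and the neuronal tubulin Tubb3 by 0.69. Voltage-gated channels gave 9 of 33 lower and 0 higher, and 7 lower without WT replicate 1. Scn4b, a sodium channel beta subunit, had the largest fall among the genes called with a symbol and at least 1 CPM in the higher group, from 7.02, 7.57 and 6.38 CPM to 0.346, 0.468 and 2.72 CPM (-2.53 ± 0.41, adjusted p = 0.0013), with replicate 3 well above the other 2 ONC-F libraries. Without ONC-F replicate 3 the value was -4.05. With DESeq2 on the 6 libraries compared, its adjusted p was 0.0903. Kcnd2 (-0.84 ± 0.14) and Scn1a (-0.58 ± 0.09), a potassium and a sodium channel subunit, fell less. Of 10 nicotinic receptor subunits, 2 fell and 0 rose, with a median of -0.15. Chrna6, a subunit known from RGCs, fell from 88.8, 97.4 and 88.3 CPM to 35.1, 39.2 and 57.1 CPM (-1.06 ± 0.12, adjusted p = 2.73e-05), and Chrnb3 by 0.81.

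Calcium-binding proteins gave 6 of 22 lower and 0 higher in ONC-F. Directly against ONC, 5 of the 22 were higher and 0 lower at an unadjusted p under 0.05 in edgeR, against 8.15% of all genes tested, and 0 passed after adjustment. Calb2 (calretinin), which RGCs share with amacrine cells, fell from 244, 255 and 253 CPM to 155, 159.9 and 192 CPM (-0.57 ± 0.06, adjusted p = 9.82e-06). Pvalb, parvalbumin, fell from 13.4, 14.9 and 12.9 CPM to 4.29, 4.35 and 7.26 CPM (-1.37 ± 0.26, adjusted p = 0.00608), a call that was lost without ONC-F replicate 1 or 2 (adjusted p = 0.0516 and 0.0526). Calb2 was also the single gene called among 16 amacrine markers. Neuropeptides went the other way, with 6 of 21 higher and 0 lower. Adcyap1, which encodes the protective peptide PACAP, rose from 1.94, 2.25 and 2.58 CPM to 8.72, 8.24 and 6.48 CPM (1.79 ± 0.18, adjusted p = 3.81e-06). Tac1 (substance P, 0.81 ± 0.08) and Vgf (1.23 ± 0.13) rose as well.

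Other retinal cells showed few calls. Over all 19259 genes tested in ONC-F against WT, 2577 had an unadjusted p under 0.05. None of 15 rod, 12 cone, 13 bipolar, 8 horizontal, 15 Müller glia and astrocyte, 17 endothelial or 13 pigment epithelium markers was called in ONC-F by edgeR, and of these lists the highest number with an unadjusted p under 0.05 was 4, among the endothelial markers. Müller glia and astrocyte markers summed to 5459 to 5740 CPM in ONC-F and 5373 to 5627 CPM in WT, and Kcnj10, a potassium channel of these glia, was called without ONC replicate 2, with the replicate block and by DESeq2. DESeq2 on the 6 libraries compared also called 1 rod, 1 cone and 1 endothelial marker (Sag, Arr3 and Kdr). Of 22 reactive gliosis genes, 0 were called in ONC-F and 5 had an unadjusted p under 0.05, with a median of 0.47 against 1.07 in ONC. Gfap was at 47.5, 47.8 and 54.6 CPM in ONC-F and 23.8, 31.0 and 29.9 CPM in WT (0.82 ± 0.39, adjusted p = 0.373), so that the groups did not overlap although the test was not passed. The adjusted p of Gfap varied with the fit, and the reason was not tested. On the 6 libraries compared it was 0.000346 with edgeR and 4.66e-13 with DESeq2. DESeq2 on all 15 libraries gave 0.531, and edgeR without WT replicate 1, ONC replicate 2 and ONC-F replicate 3 gave 0.506. Without ONC replicate 2 alone, 3 gliosis genes were called in ONC-F and the ONC median was 0.45. On the 6 libraries compared, edgeR called 7 gliosis genes in ONC-F and DESeq2 called 11. Microglia and macrophage markers gave 4 of 26 higher (Mmp12, Gpnmb, Cd68 and Spp1), and 1 of 26 without WT replicate 1. Gpnmb lost its call without WT replicate 1 or 2 or ONC-F replicate 1 (adjusted p up to 0.0721). Cd68 went from 2.14, 2.37 and 1.90 CPM to 4.43, 4.35 and 3.97 CPM (0.98 ± 0.21, adjusted p = 0.0156, and between 0.0633 and 0.0712 without WT replicate 1 or 3 or ONC-F replicate 1 or 2). The list summed to 147.7 to 151.6 CPM in ONC-F and 102.5 to 103.3 CPM in WT.

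**Figure D3:**
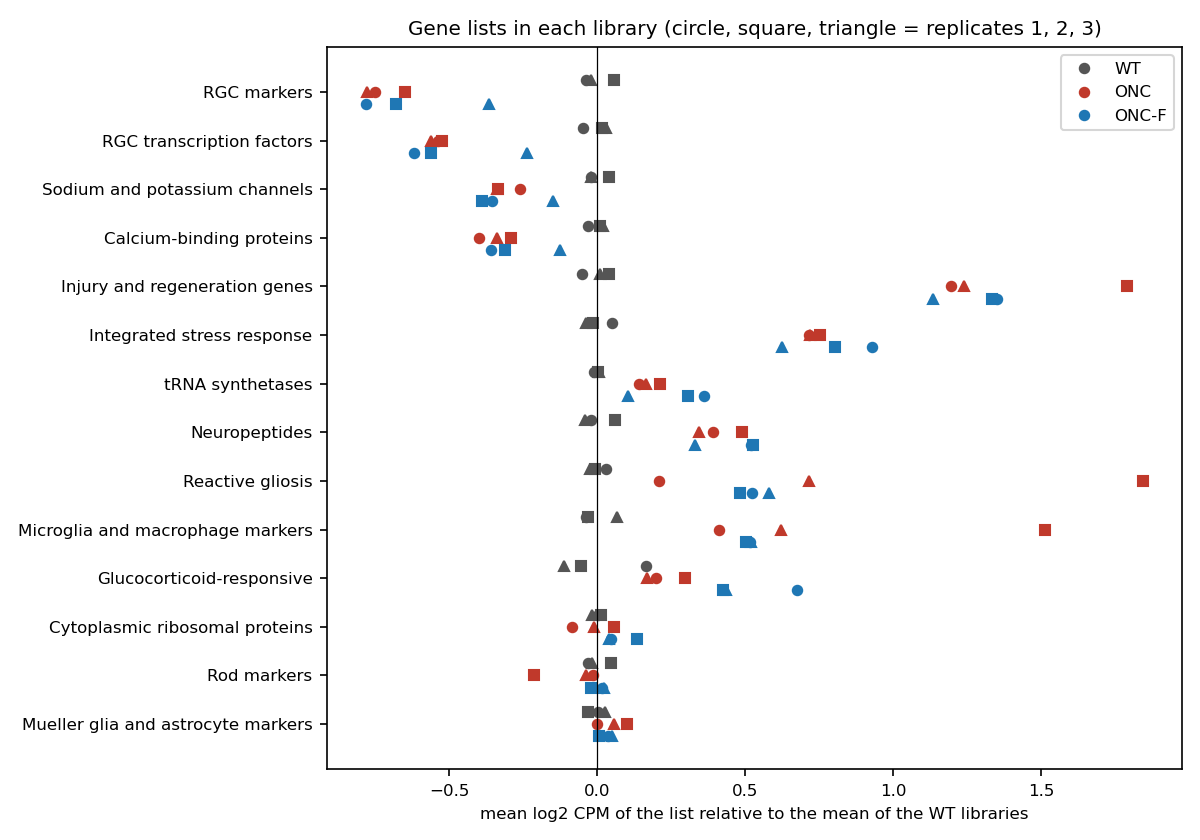
Mean log2 CPM of 14 gene lists in each library relative to the mean of the WT libraries (x axis), with WT, ONC and ONC-F in grey, red and blue and symbols for replicates 1, 2 and 3. RGC lists lie left of 0 and injury and stress lists right of 0 in all ONC-F libraries, ONC-F replicate 3 is nearest to 0 in the RGC lists, and ONC replicate 2 is far right in the gliosis and microglia lists.

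Smaller groups moved in part. The p53 targets gave 4 of 19 higher and 0 lower, and the count was 2 without WT replicate 1. Cdkn1a, the cell cycle inhibitor p21, went from 3.34, 1.43 and 1.42 CPM to 16.5, 11.1 and 12.1 CPM (2.68 ± 0.25, adjusted p = 1.85e-06), with every ONC-F library far above WT. Sesn2, a sestrin that restrains mTORC1, rose by 0.90 ± 0.10. Of 33 adhesion genes, 6 rose and 0 fell, among them the focal adhesion proteins Tes (1.01 ± 0.13) and Zyx (0.58 ± 0.08) and the integrin subunit Itga5 (0.89 ± 0.16). Among neuronal genes outside the lists above, the serotonin receptor Htr1b fell from 8.22, 9.09 and 8.12 CPM to 1.25, 2.86 and 4.49 CPM (-1.53 ± 0.30, adjusted p = 0.00635). Ctxn3, a cortexin, gave -1.54 ± 0.24 and Ahnak2 -1.37 ± 0.22. None of 18 genes of the LIF, CNTF and STAT3 pathway was called. Of the 18, 4 had an unadjusted p under 0.05, against 2577 of all 19259 genes tested, and the median of the list was 0.39. Without ONC replicate 2, or with the replicate number as a block, Stat3 was called, and edgeR on the 6 libraries compared called 4 (Edn2, Fgf2, Osmr and Stat3). Complement (0 of 19, 2 at an unadjusted p under 0.05) and interferon-stimulated genes (0 of 25, 1 at an unadjusted p under 0.05) gave no call in edgeR over all libraries, and on the 6 compared DESeq2 called 1 and 2 of them.

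The first question of the comparison was which changes seen after crush alone were also present under GB20. After crush alone, 184 genes rose (0.955%) and 223 fell (1.16%) against the same WT libraries. Of these 407 genes, 252 were also called in ONC-F in the same direction (123 higher and 129 lower) and 0 in the opposite direction. The median of the 123 was 0.81 in ONC-F and 0.76 in ONC, and that of the 129 was -0.52 and -0.59. Because the WT libraries are shared, a deviation of WT moves both comparisons alike. A further set was therefore chosen without ONC and ONC-F: 559 genes called in the same direction in ONC-J and ONC-S, of which 304 were called in ONC-F and 304 in ONC. Mice of ONC-J and ONC-S were crushed and needled, so this set holds changes of either kind, and the choice still rests on the same WT libraries. The 281 of them that rose had a median of 0.54, 0.40 and 0.39 above WT in the ONC-F libraries and 0.34, 0.38 and 0.35 in the ONC libraries. The 278 that fell had medians of -0.45, -0.38 and -0.29 in ONC-F and -0.38, -0.39 and -0.38 in ONC.

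The other 155 genes were called in ONC and not in ONC-F (61 higher and 94 lower). Of these, 134 had an unadjusted p under 0.05 in ONC-F against WT, and the median of the 61 was 0.73 in ONC and 0.41 in ONC-F, that of the 94 -0.38 and -0.23. In the direct comparison of ONC-F with ONC, 53 of the 155 had an unadjusted p under 0.05 in edgeR, against 8.15% of all genes tested, and 0 passed after adjustment. DESeq2 called 2 of them on all 15 libraries and 4 on the 6 compared (Mt3 and Rnf213, and in the latter fit also Penk and Gm10925). The calls in ONC were part of how these genes were chosen, so this share is a description. The count rested on single libraries, since it was 61 without ONC replicate 2, 88 without ONC replicate 3 and 101 without WT replicate 1.

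Mt3, a metallothionein of the nervous system that binds zinc, was at 16.7, 19.9 and 16.5 CPM in WT, 9.36, 11.8 and 9.57 CPM in ONC and 14.7, 18 and 17.6 CPM in ONC-F. Every ONC-F library lay above every ONC library, and the log2 difference was 0.72 ± 0.14 (edgeR, adjusted p = 0.112). DESeq2 called this difference on all 15 libraries and on the 6 compared (adjusted p = 0.00326 and 0.000981), as did edgeR with the replicate number as a block (adjusted p = 0.0247), while leaving out 1 library at a time gave an adjusted p of 0.101 to 0.436. Over all alternatives it ran from 3.76e-07 without a low-count filter to 0.436. Rnf213, a large ubiquitin ligase, was at 30.1, 33.8 and 29.9 CPM in WT, 36.4, 44.1 and 36.8 CPM in ONC and 30.2, 27.5 and 29.8 CPM in ONC-F (ONC-F against ONC -0.42 ± 0.08, adjusted p = 0.112, 0.00839 and 0.0148 in the same 2 DESeq2 fits, and 0.000198 to 0.498 over all alternatives). Every ONC-F library lay below every ONC library. Mt3 and Rnf213 were among the genes chosen for a small p against ONC. How many of all genes tested were so separated between ONC-F and ONC was not counted. Penk, the enkephalin precursor, was at 23.8, 31.9 and 25.6 CPM in WT, 12.2, 11.2 and 10.4 CPM in ONC and 15.8, 23.8 and 15.6 CPM in ONC-F. Its value against WT was -0.55 ± 0.21 in ONC-F (adjusted p = 0.225) and -1.27 ± 0.22 in ONC (adjusted p = 0.00161). Directly against ONC the difference was 0.72, with an adjusted p of 0.395 in edgeR. DESeq2 gave 0.47 on all 15 libraries and 0.00903 on the 6 compared. By qRT-PCR the paper reported that Penk and Mt3 fell after crush, with Penk reversed by BL1 and Mt3 by GB20 treatment.

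The next genes were chosen as called in ONC and not in ONC-F, with the smallest p between ONC-F and ONC. That choice favours ONC-F values nearer to WT than the ONC values. Calb1 (calbindin), Hpca (hippocalcin), the tubulin Tuba4a and Fdft1 (squalene synthase) gave ONC-F values against WT of -0.12, -0.11, -0.24 and -0.13. Their ONC values were -0.37, -0.33, -0.47 and -0.33. The non-coding genes Gm10925 and Snhg10 stood at 0.10 and -0.10 in ONC-F and at 0.75 and -0.63 in ONC. In edgeR over all libraries, 0 of the 155 genes called in ONC and not in ONC-F passed against ONC. Klf6, a TF linked to axon growth in fish RGCs, was at 25.5, 26.2 and 23.3 CPM in ONC-F and 20.1, 21.6 and 20.9 CPM in WT (0.26 ± 0.11, adjusted p = 0.333), and at 0.46 ± 0.11 in ONC. Nav1, a microtubule-binding protein of growth cones, gave 0.14 ± 0.06 in ONC-F (adjusted p = 0.33) and 0.26 ± 0.06 in ONC. Neither was called between ONC-F and ONC in edgeR (adjusted p = 0.678 and 0.624). The paper also measured both by qRT-PCR and reported that they rose after crush and were lowered by GB20 treatment. Fbn1, a fibrillin of the extracellular matrix, was called in neither group (-0.32 ± 0.17 in ONC-F and -0.48 ± 0.17 in ONC).

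The second question was which changes of ONC-F were absent after crush alone. There were 135 genes called in ONC-F and not in ONC, 75 higher and 60 lower, and 111 of them were protein coding. The median was 0.34 for those that rose (0.17 in ONC) and -0.42 for those that fell (-0.21 in ONC). With absence taken as an unadjusted p of at least 0.05 in ONC, 66 remained, 38 higher and 28 lower. Against ONC directly, 80 of the 135 had an unadjusted p under 0.05 in edgeR, against 8.15% of all genes tested, and 1 passed after adjustment. DESeq2 called 9 of the 135 on all 15 libraries and 11 on the 6 compared, edgeR with the replicate number as a block 4, and limma on log2 FPKM 0. The genes were chosen on the same ONC-F and ONC libraries, so this share too is a description. The count was 32 without ONC-F replicate 1, 79 without ONC-F replicate 2, 64 without WT replicate 1 and 80 without WT replicate 2.

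The gene that passed was Ebpl (ENSMUSG00000021928, chromosome 14, 61331742 to 61360439), a relative of the sterol isomerase EBP. It stood at 163, 146 and 134 CPM in WT, 140.4, 129.8 and 136 CPM in ONC and 222, 193 and 209 CPM in ONC-F. All ONC-F libraries were above all others of WT and ONC, a separation from ONC that was not counted over all genes tested. The log2 difference was 0.49 ± 0.09 against WT (adjusted p = 0.00352) and 0.62 ± 0.09 against ONC (adjusted p = 0.0306). It was the single gene edgeR called in ONC-F against ONC over all libraries, 0.00519% of those tested, where 1569 genes (8.15%) had an unadjusted p under 0.05. Leaving out WT replicate 2, ONC replicate 2 or 3, or ONC-F replicate 1 or 3 ended this call (adjusted p between 0.0563 and 0.262), with differences of 0.57 to 0.63. In the other needled groups Ebpl stood at 191, 236 and 189.9 CPM (ONC-J) and 212, 174 and 179 CPM (ONC-S), and it was called against WT in both (0.48, adjusted p = 0.00323, and 0.35, adjusted p = 0.00769).

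**Figure D4:**
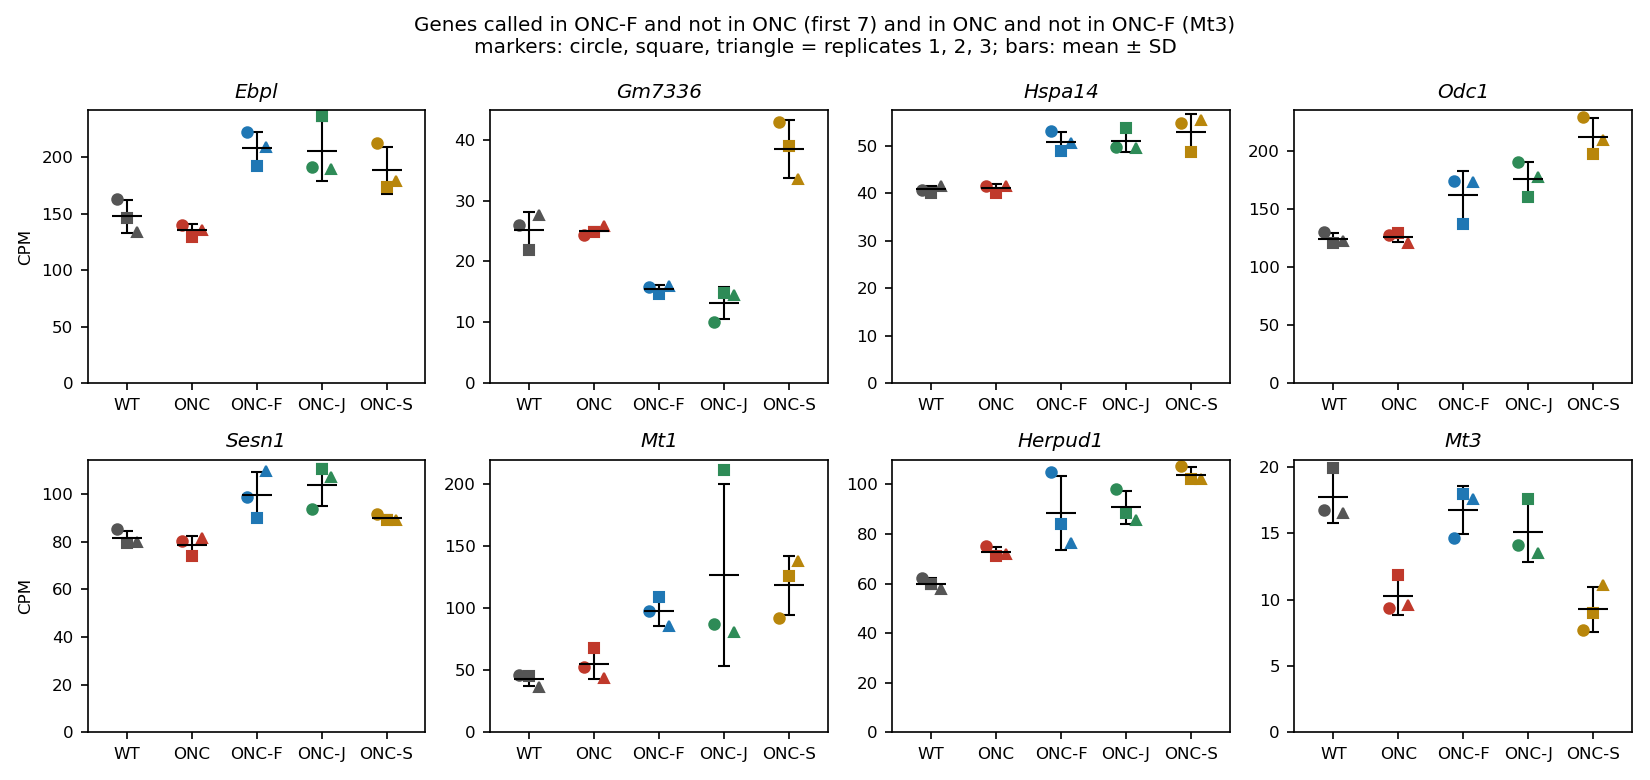
CPM in each library (y axis of each panel, from 0) of 7 genes called in ONC-F and not in ONC and of Mt3, in the 5 groups of the series (x axis), with symbols for replicates 1, 2 and 3 and bars for the mean ± SD. In the first 7 panels every ONC-F library lies apart from WT and ONC, and for Gm7336 the ONC-S libraries lie on the other side of WT from ONC-F. The genes were chosen on their calls, and separation of ONC-F from ONC was not counted over all genes tested.

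Hspa14, a ribosome-associated HSP70 protein, was at 40.8, 40.1 and 41.6 CPM in WT, 41.6, 40.1 and 41.6 CPM in ONC and 53.1, 48.9 and 50.6 CPM in ONC-F (0.32 ± 0.06 against WT, adjusted p = 0.00528). Its exons overlap those of Gm45902 on the same strand, so reads of the 2 cannot be told apart with certainty. Odc1, ornithine decarboxylase and the first enzyme of polyamine synthesis, was at 129.7, 120.1 and 122 CPM in WT and 174, 137 and 173 CPM in ONC-F (0.38 ± 0.08, adjusted p = 0.0143), against 127, 129 and 120.5 CPM in ONC. Gm7336, a processed pseudogene, fell from 26, 21.8 and 27.6 CPM to 15.8, 14.7 and 16.0 CPM (-0.70 ± 0.12, adjusted p = 0.00227), and a pseudogene can share reads with its parent gene.

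Sesn1, a stress-induced regulator of nutrient signalling, rose by 0.29 ± 0.07, Acsl3, an acyl-CoA synthetase, by 0.28 ± 0.07 and Gnb5, a G protein subunit of photoreceptors and bipolar cells, by 0.30 ± 0.08. Gas5, a host gene of small nucleolar RNAs (0.22 ± 0.05), Zranb1, a deubiquitinase (0.31 ± 0.06), and Gm10282 (0.47 ± 0.10) rose, while the low-level transcripts Gm49209 and Gm43283 fell (-1.30 ± 0.27 and -1.67 ± 0.42). Against ONC, DESeq2 on all 15 libraries called 9 of these 12 genes (not Gas5, Gm49209 and Gm43283), and DESeq2 on the 6 compared called 8, without Hspa14. Of the 12, which had the smallest p against ONC, Ebpl, Gm7336 and Hspa14 kept their call against WT whichever WT or ONC-F library was left out. The other 9 lost it in at least 1 such fit, with the highest adjusted p, 0.26, for Gnb5 without ONC-F replicate 1. Sesn1, Acsl3, Gnb5 and Gas5 kept it in only 1 of the 6 such fits, Odc1 and Gm43283 in 2, Gm49209 in 3, Gm10282 in 4 and Zranb1 in 5.

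**Figure D5:**
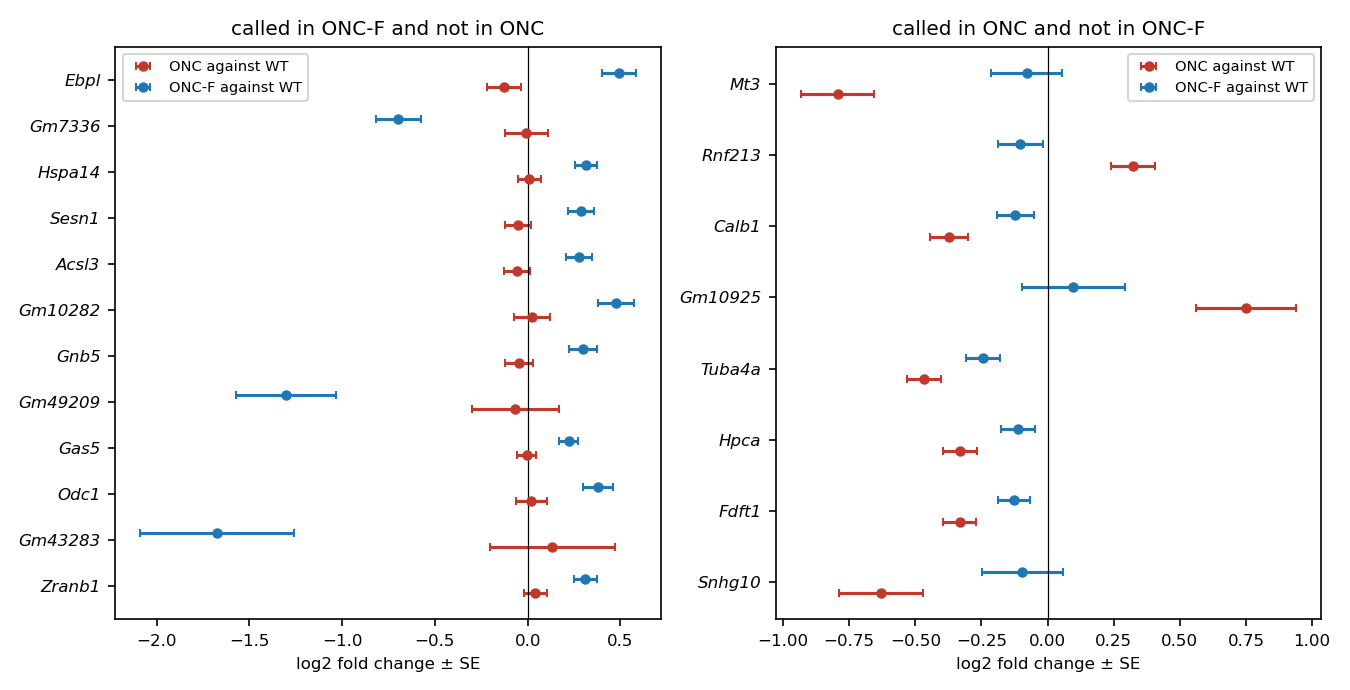
Log2 fold change ± SE against WT (x axis) in ONC (red) and ONC-F (blue) for the 12 genes called in ONC-F and not in ONC (left) and the 8 called in ONC and not in ONC-F (right) with the smallest p between ONC-F and ONC. On the left the ONC values lie between -0.13 and 0.13, and on the right the ONC-F values lie nearer to 0 than the ONC values. The way the genes were chosen favours both patterns.

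Members of the stress lists were also called in ONC-F and not in ONC. Herpud1, a protein of endoplasmic reticulum quality control, was at 62.3, 59.7 and 57.9 CPM in WT, 75.2, 71.3 and 72.0 CPM in ONC and 105, 84.1 and 76.5 CPM in ONC-F (0.56 ± 0.08, adjusted p = 0.000539). ONC lay between, at 0.28 ± 0.08 (adjusted p = 0.108). Mthfd2, the synthetases Aars, Cars and Lars, the growth arrest gene Gadd45a (0.57 ± 0.09) and the p53 regulator Mdm2 (0.30 ± 0.06) were further such genes. None of them was called against ONC in edgeR over all libraries (adjusted p of at least 0.378). The calls of Cars, Lars and Mdm2 against WT were each lost without WT replicate 1, ONC-F replicate 1 or ONC-F replicate 2 (adjusted p up to 0.17, 0.0817 and 0.0882). Cars also lost its call without WT replicate 2 or 3, and Mdm2 without WT replicate 3.

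Of 17 genes known to respond to glucocorticoids, 2 rose in ONC-F (Cdkn1a and Mt1) and 1 in ONC (Cdkn1a), and the median was 0.31 in ONC-F and -0.02 in ONC. Without ONC-F replicate 3 the ONC-F median was 0.18 with 3 genes higher, and without WT replicate 1 the 1 gene called was Cdkn1a. Mt1, a metallothionein, was at 46.5, 45.4 and 36.3 CPM in WT, 52.6, 68.1 and 44.1 CPM in ONC and 97.6, 109 and 86.1 CPM in ONC-F (1.19 ± 0.26 against WT, adjusted p = 0.0181). Fkbp5, a glucocorticoid receptor co-chaperone, was at 24.7, 22.1 and 21.7 CPM in WT, 23.7, 23.4 and 20.6 CPM in ONC and 53.4, 44.0 and 27.0 CPM in ONC-F (0.85 ± 0.24, adjusted p = 0.0862). Fkbp5 was called without ONC-F replicate 3 (adjusted p = 0.0143), with the replicate number as a block (0.0206) and by edgeR on the 6 libraries compared (0.0213), and its adjusted p was up to 0.364 without 1 other library. Against ONC, 7 of the 17 were higher and 1 lower at an unadjusted p under 0.05 in edgeR, against 8.15% of all genes tested, and 0 passed after adjustment. DESeq2 on the 6 libraries compared called Mt1 against ONC (adjusted p = 0.0263), and on all 15 libraries it did not (adjusted p = 0.569). The call of Mt1 was lost without any 1 of the WT libraries or of ONC-F replicates 1 and 2 (adjusted p at most 0.0883). The mean log2 level of the list relative to WT was 0.43 to 0.68 in ONC-F, 0.17 to 0.30 in ONC and -0.11 to 0.17 in WT. ONC-F mice were anesthetized before needling, and the methods do not say whether ONC mice were anesthetized at those times, so a part of repeated anesthesia in ONC-F against ONC was not tested.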

How the data were processed

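Whole retinas were sequenced as 15 libraries, 3 a group. The authors aligned reads to mm10 with HISAT2 2.0.5, counted them per gene with featureCounts and deposited raw counts, and computed the deposited FPKM values from them. The annotation release and strand setting are not given in the sources used here. Genes were kept by filterByExpr (minimum count 10, minimum total 15), scaled by TMM and tested in edgeR 4.0.16 (quasi-likelihood F-test) over all 15 libraries (R 4.3.3), with p-values adjusted by Benjamini-Hochberg over 19259 genes and called under 0.05. The SE of a log2 fold change was derived from this test, as its absolute value divided by the square root of the F statistic. It is therefore approximate, above all for genes near 0 counts in WT. Alternatives were DESeq2 1.42.0, limma 3.58.1 on voom or log2 FPKM (pseudocounts 1 and 0.1), RLE factors, other filters, 6 libraries, a replicate block and leaving out libraries. The set without 3 libraries at once was chosen after the data were seen. The 48 gene lists and the rules for named genes (the 12 largest changes per direction, up to 4 per list, 12 ONC-F-only and 8 ONC-only genes with the smallest p against ONC, and genes the study names) were chosen with earlier results of these data known. Promoters are from RefSeq.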

Additional observations from a re-analysis of the deposited data

Results flagged for a closer look

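In edgeR over all 15 libraries, Ebpl was the single gene whose change against WT differed between ONC-F and ONC in a test of the difference itself. The difference was 0.62 on the log2 scale (edgeR quasi-likelihood, adjusted p = 0.0306). Under DESeq2 on all 15 libraries, Ebpl was 1 of 26 genes called, with a difference of 0.62 (adjusted p = 2.13e-07). With limma on log2 FPKM it did not pass (adjusted p = 0.154 and 0.164). With 3 libraries a group, no test for a library far from the others of its group was made.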

How the results depend on the processing

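Without a low-count filter edgeR pooled the spread of all genes (an infinite prior degrees of freedom in place of 8.95), and called 429 higher and 481 lower genes in ONC-F against WT, 479 in both groups, 395 in ONC and not ONC-F, 424 in ONC-F and not ONC, and 336 in ONC-F against ONC. Otherwise the number of genes called in ONC-F against ONC was 26 with DESeq2 on all libraries, 46 with DESeq2 and 9 with edgeR on the 6 libraries compared, 0 with limma on log2 FPKM at either pseudocount (1626 and 1613 genes at an unadjusted p under 0.05) and 10 with the replicate block. The genes called in ONC-F and not in ONC numbered 220 with DESeq2 on 6 libraries and 66 with absence taken as an unadjusted p of at least 0.05, and those called in ONC and not in ONC-F 257 with limma-voom; the cause was not tested. Under the replicate block 233 genes were higher and 216 lower in ONC-F against WT. The 9 correlations between same-numbered libraries of different groups were -0.044 to 0.111, 2 of them above 0.1, and a library correlated best with its own number in 13 of 18 cases. The labels give the numbers no meaning, so the block was kept as an alternative.

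Leaving out 1 library at a time gave 116 to 220 higher and 88 to 239 lower genes, 172 to 285 called in both groups, 61 to 232 in ONC and not ONC-F, 32 to 201 in ONC-F and not ONC, and 0 to 10 in ONC-F against ONC. Without WT replicate 1, ONC replicate 2 and ONC-F replicate 3 together, 151 genes were higher and 159 lower, 195 were called in both, 40 in ONC and not ONC-F, 115 in ONC-F and not ONC and 0 in ONC-F against ONC (1418 at an unadjusted p under 0.05). Of 76 genes named and called in ONC-F, 57 were called in every fit without 1 WT or ONC-F library. Over 1561 values of named genes under alternatives, 1416 kept direction and side of the threshold, 113 lost the call, 27 gained it and 5 changed sign, all of genes not called: leaving out libraries moved Mt3 between -0.15 and 0.017 and Gm10925 between -0.093 and 0.47. Depth and 3 libraries a group limit what small changes can show.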
